A study of Mus musculus with 3 samples.

Results

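A list of 10 genes of eosinophils, basophils and mast cells was followed across 3 libraries of sorted mouse myeloid cells. The genes were found by symbol among the 19723 genes of the count table, by a rule that uses no measured value. They are Epx, Prg2, Prg3, Ear1, Ear2 and Ear6 of eosinophils, Mcpt8 and Prss34 of basophils, and Cpa3 and Ms4a2, which basophils and mast cells share. The first library held MDSCs (myeloid-derived suppressor cells, a mixed set of immature granulocytes and monocytes known for damping T cell responses) sorted from 20 pooled tumours of female BALB/c mice that received alisertib, a drug that blocks the mitotic kinase Aurora A. The second held MDSCs from 20 pooled tumours of control female BALB/c mice, which the labels describe both as untreated and as control treated. The third held neutrophils from the bone marrow of 5 female wild-type BALB/c mice without a stated treatment. All mice were 6 to 8 weeks old, and the labels give neither the sort markers nor the tumour line, dose or schedule. Each group was 1 pooled library, so no spread between animals and no p-value could be given.

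Eosinophils, basophils and mast cells are granule-bearing cells whose granules are packed with basic proteins, ribonucleases and serine proteases. Eosinophils and basophils complete their development in the bone marrow, where most granule protein mRNA is made, whereas mast cells mature in the tissues. All these lineages need GATA family transcription factors, and basophils and mast cells carry the high-affinity IgE receptor. Eosinophils and mast cells are known residents of many tumours.

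Nearly all of the signal lay in the bone marrow library. The 10 genes together had 35 counts in alisertib MDSCs, 61 in control MDSCs and 7123 in bone marrow neutrophils. After scaling to the library size this was 1.69 CPM (counts per 1e6 of TMM-scaled depth, 95% exact Poisson interval 1.17 to 2.34) in alisertib MDSCs, 3.12 CPM (2.39 to 4.01) in control MDSCs and 309 CPM (302 to 316) in bone marrow neutrophils. The genes took 0.0324% of all counts in the bone marrow library. In pooled cells, fewer cells of a type and less RNA per cell cannot be told apart. All 10 genes were lower in both tumour libraries than in bone marrow, and none was called different between the tumour libraries.

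**Figure D1:**
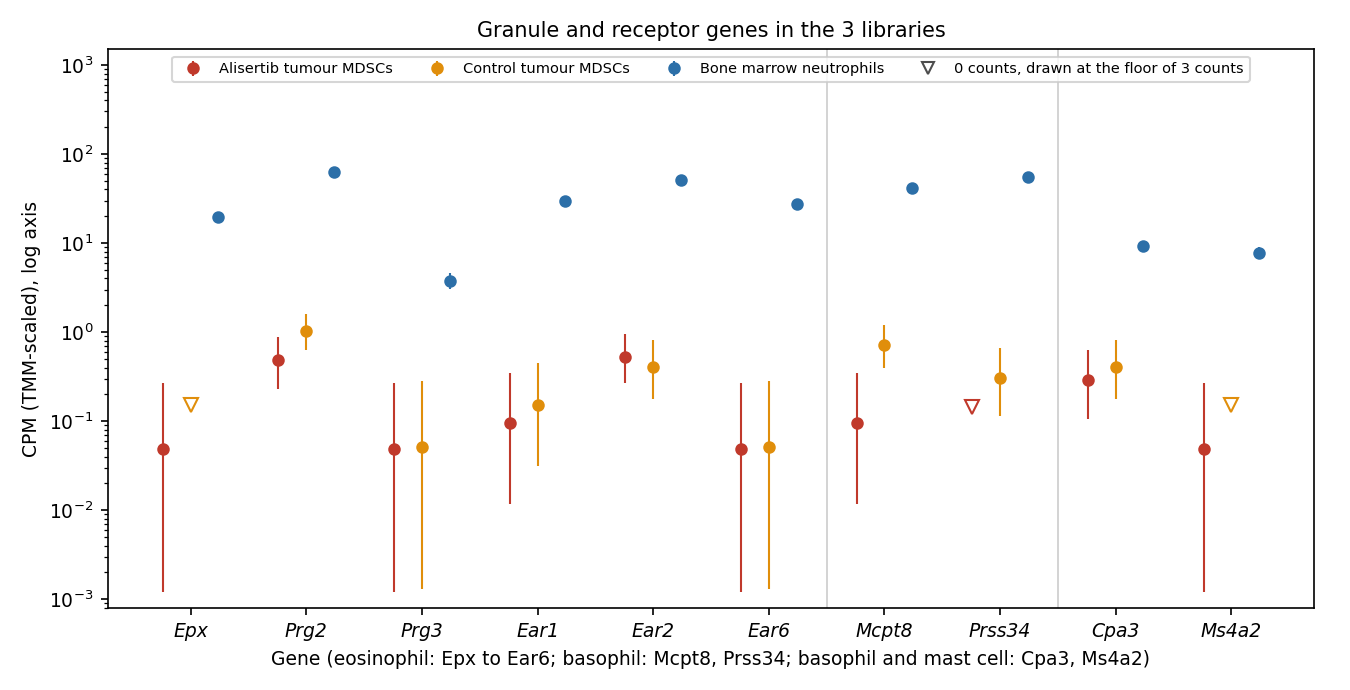
TMM-scaled CPM (log axis) of each of the 10 genes in alisertib MDSCs, control MDSCs and bone marrow neutrophils, with exact 95% Poisson intervals of counting error; open triangles mark 0 counts, drawn at the floor of 3 counts. The bone marrow points lie between 3.77 CPM (Prg3) and 63.4 CPM (Prg2), and the highest tumour point is Prg2 in control MDSCs at 1.02 CPM.

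A gene was called when the bound of its exact 95% ratio interval nearest to 1 was 2-fold or more, among 13019 genes with at least 1 CPM in some library. In control MDSCs against bone marrow, 10 of 10 members were called lower, where 41.3% of all genes tested were called, 22.9% lower and 18.3% higher. In alisertib MDSCs against bone marrow, 10 of 10 were again called lower, where 41.0% of all genes were called, 22.3% lower and 18.7% higher. These comparisons share the bone marrow library. The shares of all genes also stand beside each later count of listed genes called against bone marrow. All 10 genes passed the 1 CPM filter, 9 of them only through bone marrow, so that those 9 had to differ and their count is a description. The median log2 ratio of the 10 was -7.12 for control MDSCs over bone marrow (-6.58 from ratios with no 0.5 added and libraries at 0 counts set to their floor), where the median of all genes was -0.14. For alisertib MDSCs over bone marrow it was -7.45 (-7.79 computed in that second way), where the median of all genes was -0.09. Cpa3 was the least lowered of the 10 genes, and 2.42% of all genes tested lay at or under its ratio in control MDSCs over bone marrow, as did 1.56% in alisertib MDSCs over bone marrow.

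**Figure D2:**
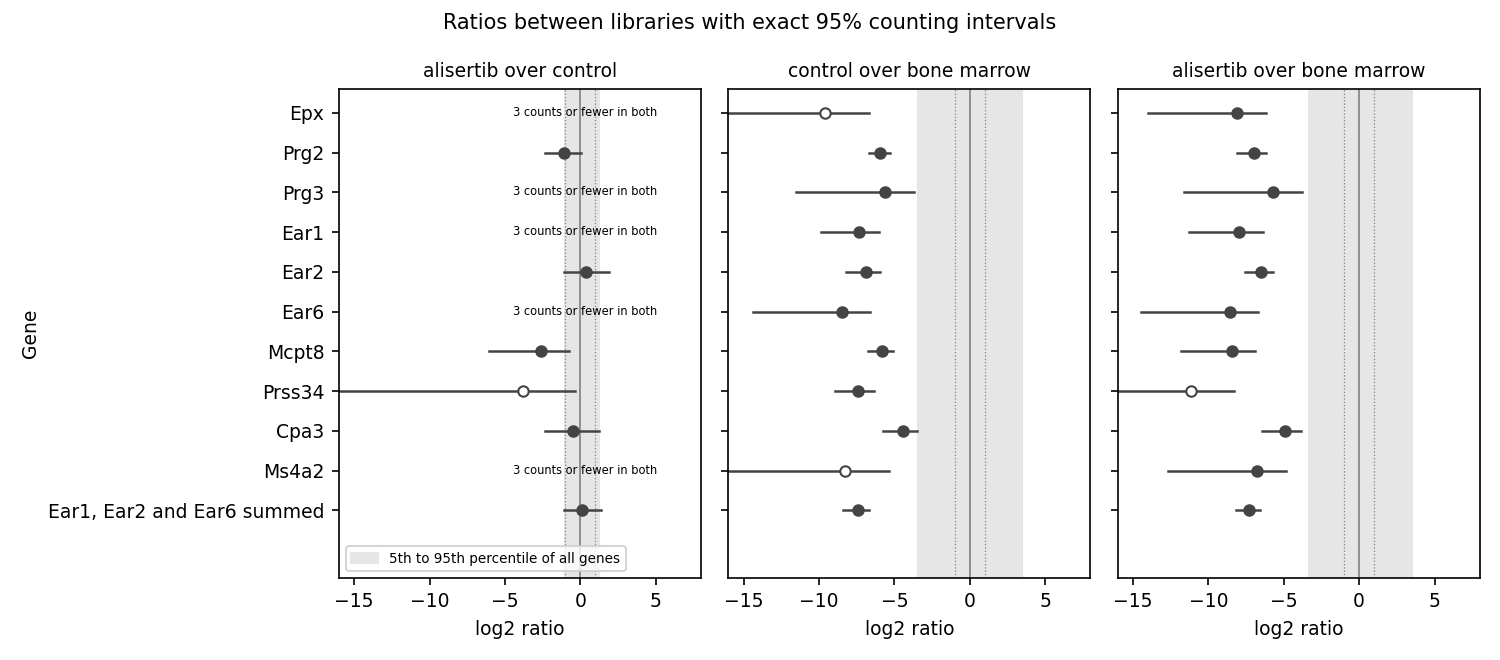
Log2 ratios of the 10 genes and of the 3 Ear genes summed, with exact 95% counting intervals, for alisertib over control, control over bone marrow and alisertib over bone marrow; open circles have 0 counts in 1 library (ratio after adding 0.5 to each count), dotted lines mark 2-fold and grey bands the 5th to 95th percentile of all genes. Both bone marrow panels hold every gene left of the band, which ended at -3.40 for control and -3.34 for alisertib, and in the alisertib over control panel only Mcpt8 and Prss34 have intervals that leave out 0.

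Epx encodes eosinophil peroxidase, the haem enzyme that makes hypobromous acid in the granule matrix. It lies on chromosome 11 at 87864000 to 87875536, minus strand (ENSMUSG00000052234; all positions of whole genes are from GENCODE M21 on GRCm38). It had 1 count in alisertib MDSCs, 0 in control MDSCs and 458 in bone marrow neutrophils. Its level was 0.0482 CPM in alisertib MDSCs, at most the floor of 0.154 CPM (3 counts) in control MDSCs and 19.9 CPM in bone marrow. Only the bone marrow library was above the floor. Epx was 412-fold lower in alisertib MDSCs than in bone marrow (interval 73.6 to 16313, from a single count). It was at least 129-fold lower in control MDSCs than in bone marrow.

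Prg2 and Prg3 encode the major basic protein and its homologue, the toxic core proteins of the eosinophil granule. They lie next to each other on the plus strand of chromosome 2, Prg2 at 84980461 to 84983632 (ENSMUSG00000027073) and Prg3 at 84988215 to 84993886 (ENSMUSG00000027072). Prg2 had 10 counts in alisertib MDSCs, 20 in control MDSCs and 1462 in bone marrow neutrophils, or 0.482, 1.02 and 63.4 CPM. Prg3 had 1 count in alisertib MDSCs, 1 in control MDSCs and 87 in bone marrow neutrophils, or 0.0482, 0.0512 and 3.77 CPM. Both genes were high in bone marrow only, and Prg2 in control MDSCs was the sole tumour value of the 10 genes above 1 CPM. Prg2 was 132-fold lower in alisertib MDSCs (71.3 to 275) and 61.9-fold lower in control MDSCs (39.9 to 102) than in bone marrow. Prg3 was 78.3-fold lower in alisertib MDSCs (13.7 to 3127) and 73.7-fold lower in control MDSCs (12.9 to 2943). Prg2 had overlapping shares of the summed Prg2 and Prg3 counts in the 3 libraries, with 90.9% in alisertib MDSCs (Clopper-Pearson interval 58.7 to 99.8), 95.2% in control MDSCs (76.2 to 99.9) and 94.4% in bone marrow (93.1 to 95.5). Their transcripts were 68.3% identical, and neither shared a stretch of 50 bases with another gene's transcript.

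Ear1, Ear2 and Ear6 encode eosinophil-associated ribonucleases, secreted enzymes of a rapidly duplicating rodent family. All lie on chromosome 14, Ear1 at 43818765 to 43875517 on the minus strand (ENSMUSG00000072601), Ear2 at 44102654 to 44103534 on the plus strand (ENSMUSG00000072596) and Ear6 at 51853699 to 51854643 on the plus strand (ENSMUSG00000062148). Their reads cannot be fully told apart. Of the windows of 50 bases in the Ear1 transcript, 57.4% also occur in another gene's transcripts, most often in Ear-ps9, whose exons Ear1 overlaps. Of those in Ear2 41.5% do, most often in Ear10, and of those in Ear6 1.07%. Ear1 and Ear2 transcripts were 96.8% identical, Ear1 and Ear6 89.0%, and Ear2 and Ear6 89.3%. The sequence ahead of the RefSeq start sites of the 3 genes was alike too. The 250 bases before the RefSeq start sites (GRCm38.p6) are shown because they carry this duplication: Ear1 and Ear2 were 99.2% identical there, Ear1 and Ear6 92.6%, and Ear2 and Ear6 93.0%, over the aligned bases. Capitals mark the longest stretch common to all 3, of 57 bases, which lies at bases -147 to -91 in Ear1, -145 to -89 in Ear2 and -167 to -111 in Ear6. The windows are chr14:43819640-43819889 (minus strand) for Ear1, chr14:44102404-44102653 (plus strand) for Ear2 and chr14:51853518-51853767 (plus strand) for Ear6. RefSeq and GENCODE starts differ here. By the GENCODE positions above, the Ear1 window lies inside the gene and the Ear6 window overlaps the first bases of the gene.
Ear1: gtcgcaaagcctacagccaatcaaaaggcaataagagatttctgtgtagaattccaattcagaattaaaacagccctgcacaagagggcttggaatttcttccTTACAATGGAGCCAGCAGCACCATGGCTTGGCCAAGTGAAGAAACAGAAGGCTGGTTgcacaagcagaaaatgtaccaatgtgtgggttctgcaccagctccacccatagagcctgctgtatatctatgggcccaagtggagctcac
Ear2: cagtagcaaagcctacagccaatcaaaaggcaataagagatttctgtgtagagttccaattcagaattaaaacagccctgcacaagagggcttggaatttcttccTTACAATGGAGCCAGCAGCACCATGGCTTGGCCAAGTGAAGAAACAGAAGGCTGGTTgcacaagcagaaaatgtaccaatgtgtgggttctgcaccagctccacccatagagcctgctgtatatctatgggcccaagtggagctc
Ear6: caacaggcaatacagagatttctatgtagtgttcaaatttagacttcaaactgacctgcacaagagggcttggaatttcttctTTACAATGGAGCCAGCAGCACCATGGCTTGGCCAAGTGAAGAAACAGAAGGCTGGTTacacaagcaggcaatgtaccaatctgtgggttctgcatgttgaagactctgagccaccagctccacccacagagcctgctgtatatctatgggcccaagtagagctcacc

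Ear1 had 2 counts in alisertib MDSCs, 3 in control MDSCs and 680 in bone marrow neutrophils, or 0.0963, 0.154 and 29.5 CPM. Ear2 had 11, 8 and 1176 counts in the same order of libraries, or 0.530 CPM in alisertib MDSCs, 0.410 in control MDSCs and 51.0 in bone marrow. Ear6 had 1 count in alisertib MDSCs, 1 in control MDSCs and 639 in bone marrow, or 0.0482, 0.0512 and 27.7 CPM. All 3 were high in bone marrow only, and Ear2 gave most of the few tumour counts. Because copies share reads, the sum is the firmer value. It was 14 counts in alisertib MDSCs, 12 in control MDSCs and 2495 in bone marrow. The sum was 160-fold lower in alisertib MDSCs (95.4 to 294) and 176-fold lower in control MDSCs (101 to 341) than in bone marrow. Ear6, which shares few reads, was 575-fold lower in alisertib MDSCs (103 to 22746) and 541-fold lower in control MDSCs (96.8 to 21404), each from 1 count. Ear1 was 306-fold lower in alisertib MDSCs (84.4 to 2531) and 192-fold lower in control MDSCs (65.4 to 933). Ear2 was 96.2-fold lower in alisertib MDSCs (53.6 to 193) and 124-fold lower in control MDSCs (63.0 to 289). Ear2 was 78.6% of the summed Ear counts in alisertib MDSCs (11 of 14, 49.2 to 95.3), 66.7% in control MDSCs (8 of 12, 34.9 to 90.1) and 47.1% in bone marrow (45.2 to 49.1).

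Ear2 is also made by Ly6C-low monocytes. Of 5 genes of those cells past the filter, 2 were called lower in alisertib MDSCs than in bone marrow and 3 in control MDSCs. Nr4a1 was called higher in control MDSCs. The summed level of the 6 listed genes was 226 CPM in alisertib MDSCs, 308 CPM in control MDSCs and 281 CPM in bone marrow, with none at 0 counts. Different genes made up these sums. Nr4a1 gave 144 CPM in alisertib MDSCs and 235 CPM in control MDSCs, and Spn gave 150 CPM in bone marrow. Treml4 had 58.7 CPM in alisertib MDSCs, 46.7 CPM in control MDSCs and 28.7 CPM in bone marrow and was not called. The part of Ly6C-low monocytes in the Ear2 values was not tested.

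Mcpt8, a granzyme-like serine protease found in mouse basophils, lies on chromosome 14 at 56082166 to 56085273, minus strand (ENSMUSG00000022157). Prss34, another basophil serine protease, lies on chromosome 17 at 25298394 to 25300165, plus strand (ENSMUSG00000056399). Mcpt8 had 2 counts in alisertib MDSCs, 14 in control MDSCs and 947 in bone marrow neutrophils, or 0.0963, 0.717 and 41.1 CPM. Prss34 had 0 counts in alisertib MDSCs, 6 in control MDSCs and 1280 in bone marrow, which is at most 0.145 CPM (the floor) in alisertib MDSCs, 0.307 CPM in control MDSCs and 55.5 CPM in bone marrow. Both genes were highest in bone marrow and had more counts in control than in alisertib MDSCs. Mcpt8 was 426-fold lower in alisertib MDSCs (118 to 3523) and 57.3-fold lower in control MDSCs (34.0 to 105) than in bone marrow. Prss34 was at least 384-fold lower in alisertib MDSCs and 181-fold lower in control MDSCs (82.8 to 493). Neither transcript shared a stretch of 50 bases with another gene.

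Cpa3 encodes mast cell carboxypeptidase A, which basophils also store, and lies on chromosome 3 at 20215620 to 20242181, minus strand (ENSMUSG00000001865). Ms4a2 encodes the beta chain of the high-affinity IgE receptor and lies on chromosome 19 at 11615523 to 11623719, minus strand (ENSMUSG00000024680). Cpa3 had 6 counts in alisertib MDSCs, 8 in control MDSCs and 215 in bone marrow neutrophils, or 0.289, 0.410 and 9.32 CPM. Ms4a2 had 1 count in alisertib MDSCs, 0 in control MDSCs and 179 in bone marrow, which is 0.0482 CPM in alisertib MDSCs, at most the floor of 0.154 CPM in control MDSCs and 7.76 CPM in bone marrow. Both were lower in the tumour libraries, Cpa3 by the smallest fold of the 10 genes. Cpa3 was 32.2-fold lower in alisertib MDSCs (14.6 to 88.8) and 22.8-fold lower in control MDSCs (11.3 to 53.4). Ms4a2 was 161-fold lower in alisertib MDSCs (28.5 to 6397) and at least 50.5-fold lower in control MDSCs. The Ms4a2 transcript shared 2.69% of its windows of 50 bases with Ms4a4b and the Cpa3 transcript none with any gene.

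Promoters of these lineages are known for sites of GATA factors. The 250 bases before the RefSeq start (GRCm38.p6) were searched on both strands for the word AGATAA, its variant AGATAG ending in another base, the word TGATAA and its variant TGATAG, which do not overlap one another in the matches found. Of the 10 genes, 9 were in the RefSeq promoter table, all but Prg2. A word was found in 4 of the 9 (44.4%), against 8718 of 32851 windows of the same length in the table (26.5%). The 4 windows are shown because they hold those matches, with the words in capitals: chr2:84987965-84988214 (plus strand) for Prg3, chr17:25298144-25298393 (plus strand) for Prss34, chr3:20242182-20242431 (minus strand) for Cpa3 and chr19:11623720-11623969 (minus strand) for Ms4a2.
Prg3: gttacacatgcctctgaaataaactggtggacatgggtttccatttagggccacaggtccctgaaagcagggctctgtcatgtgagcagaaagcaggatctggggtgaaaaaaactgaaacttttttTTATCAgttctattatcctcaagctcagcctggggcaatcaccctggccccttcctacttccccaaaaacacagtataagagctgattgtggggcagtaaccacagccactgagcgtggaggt
Prss34: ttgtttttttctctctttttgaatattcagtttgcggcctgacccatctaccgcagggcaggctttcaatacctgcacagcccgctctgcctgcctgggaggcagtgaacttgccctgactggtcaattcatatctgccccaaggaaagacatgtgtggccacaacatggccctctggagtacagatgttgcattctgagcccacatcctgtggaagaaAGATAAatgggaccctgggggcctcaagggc
Cpa3: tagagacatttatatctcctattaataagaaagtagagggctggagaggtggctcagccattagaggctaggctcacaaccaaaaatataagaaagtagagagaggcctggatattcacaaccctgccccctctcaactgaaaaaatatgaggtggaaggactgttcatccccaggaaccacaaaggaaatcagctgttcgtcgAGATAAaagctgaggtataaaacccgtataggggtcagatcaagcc
Ms4a2: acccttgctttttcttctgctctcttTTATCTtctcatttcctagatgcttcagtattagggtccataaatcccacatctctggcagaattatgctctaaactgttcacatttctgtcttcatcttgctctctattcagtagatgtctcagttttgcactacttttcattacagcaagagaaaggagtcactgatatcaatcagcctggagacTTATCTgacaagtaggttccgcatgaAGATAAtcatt

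In Prg3 the match was TGATAA on the opposite strand at bases -123 to -118. Prss34 held AGATAA on the gene strand at -31 to -26, and Cpa3 held it at -46 to -41. Ms4a2 held 3 copies of AGATAA, at -224 to -219 and -37 to -32 on the opposite strand and at -11 to -6 on the gene strand. The matches from base -46 onward were in Prss34, Cpa3 and Ms4a2, and the windows of Epx, Ear1, Ear2, Ear6 and Mcpt8 held none of the 4 words. The share of all windows with a word that near the start was not computed. A match describes letters, not binding.

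**Figure D3:**
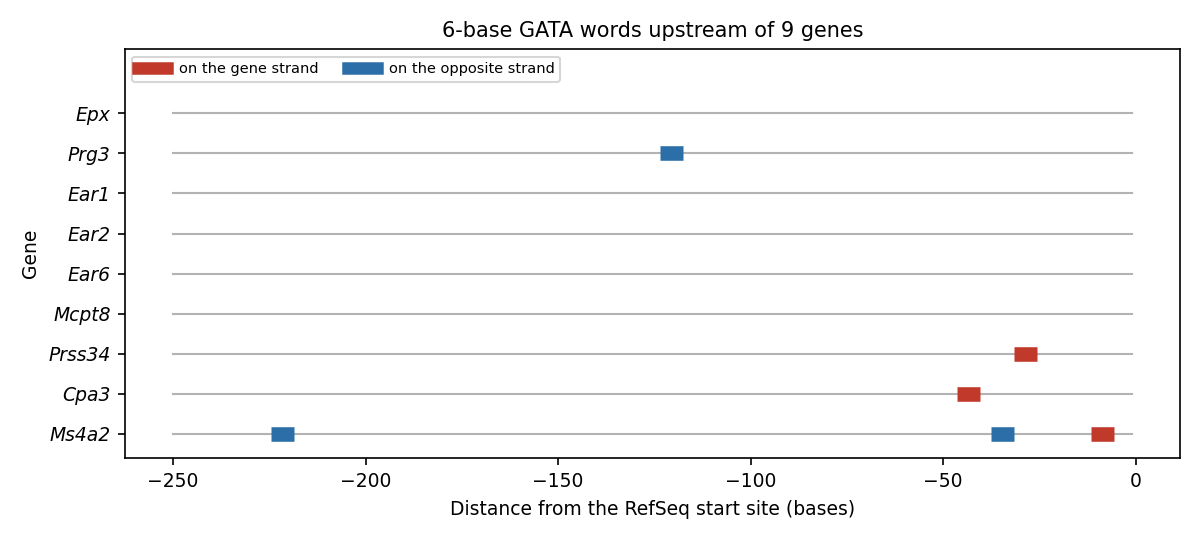
Positions of the 4 GATA words searched, each of 6 bases, in the 250 bases before the RefSeq start site of 9 genes (horizontal axis in bases from the start), coloured by strand. Ms4a2 has 3 matches, Prg3, Prss34 and Cpa3 have 1 each, and the other windows have none.

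Levels between genes were compared per length, on the deposited FPKM scale (fragments per kilobase of gene, scaled to a library size). In bone marrow Prg2 stood highest at 74.8 FPKM (71.0 to 78.7, counting error only) and Ear2 next at 70.1 (66.2 to 74.3). Mcpt8 followed at 47.5 (44.5 to 50.6), then Prss34 at 45.1 (42.7 to 47.7) and Ear1 at 39.9 (37.0 to 43.1). Ear6 was at 29.0 FPKM (26.8 to 31.3). The remaining 4 were far lower, with Epx at 7.17 (6.53 to 7.86), Cpa3 at 6.08 (5.29 to 6.95), Prg3 at 3.93 (3.15 to 4.85) and Ms4a2 at 2.73 (2.34 to 3.16). In this order the neighbours Prg2 and Ear2 had overlapping intervals, as had Mcpt8 and Prss34, Prss34 and Ear1, Epx and Cpa3, and Prg3 and Ms4a2. In the tumour libraries no member passed the 1.19 FPKM of Prg2 in control MDSCs. For scale, the neutrophil elastase gene Elane, an azurophil granule enzyme, had 34.3 FPKM in the bone marrow library, so 5 of the 10 eosinophil, basophil and mast cell genes stood above it. The secondary granule gene Camp had 6015 FPKM there.

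The makeup of the small signal differed between the tumour libraries. Mcpt8 and Prss34 were 7.14% of the summed eosinophil and basophil gene counts in alisertib MDSCs (2 of 28, Clopper-Pearson interval 0.877 to 23.5), 37.7% in control MDSCs (20 of 53, 24.8 to 52.1) and 33.1% in bone marrow (2227 of 6729, 32.0 to 34.2). The intervals of alisertib MDSCs and bone marrow did not overlap, those of alisertib and control MDSCs did not overlap, and those of control MDSCs and bone marrow did. The 6 eosinophil genes summed to 26 counts in alisertib MDSCs (1.25 CPM, 0.818 to 1.84) and 33 in control MDSCs (1.69 CPM, 1.16 to 2.37), which overlap. Cpa3 and Ms4a2 summed to 7 counts in alisertib MDSCs and 8 in control MDSCs. The shares were chosen after the counts were seen, and they rest on few counts of 1 library each.

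Gene by gene, none of the 10 was called between alisertib and control MDSCs, where 2.98% of all genes were called, 1.80% higher and 1.18% lower. Mcpt8 came closest, with 2 counts in alisertib MDSCs and 14 in control MDSCs. It was 7.44-fold lower in alisertib MDSCs, with an interval of 1.71 to 67.4 that leaves out no change but reaches under 2-fold. Prss34, with 0 counts in alisertib MDSCs and 6 in control MDSCs, had an upper bound of 0.799 for its ratio of alisertib over control. Both basophil proteases thus had fewer counts with alisertib, without passing the call. Of 9 other basophil genes past the filter, none was called between the tumour libraries. Their median log2 ratio was -0.44 for alisertib over control, with genes on both sides of no change. Cd200r3 had 46 counts in alisertib MDSCs and 31 in control MDSCs, whereas Cyp11a1 had 11 and 19. Prg2 had a ratio of 0.471 (0.197 to 1.05) for alisertib over control, Ear2 of 1.29 (0.474 to 3.71) and Cpa3 of 0.706 (0.202 to 2.32). The ratio of the summed Ear genes was 1.10 (0.471 to 2.60). These intervals span no change, so a difference was not detectable at this depth. Epx, Prg3, Ear1, Ear6 and Ms4a2 had 3 counts or fewer in both tumour libraries, and no ratio is given for them.

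Surface and enzyme genes of eosinophils were called in both directions. Of 5 such genes past the filter, 1 was called higher and 2 lower in alisertib MDSCs than in bone marrow, and 2 higher and 2 lower in control MDSCs. Siglecf, the eosinophil lectin that tissue macrophages and some tumour neutrophils also carry, had 1086 counts in alisertib MDSCs, 695 in control MDSCs and 209 in bone marrow. It was 5.77-fold higher in alisertib MDSCs (4.98 to 6.73) and 3.93-fold higher in control MDSCs (3.36 to 4.61) than in bone marrow. Ccr3, the eotaxin receptor, had 253 counts in alisertib MDSCs, 148 in control MDSCs and 193 in bone marrow and was not called. Il5ra, the receptor chain for the eosinophil growth factor, had 6 counts in alisertib MDSCs, 4 in control MDSCs and 61 in bone marrow, 9.15-fold lower in alisertib MDSCs (3.97 to 25.9) and 12.9-fold lower in control MDSCs (4.79 to 48.9). Alox15, the lipoxygenase of eosinophils and resident macrophages, was 139-fold lower in alisertib MDSCs (70.5 to 324) and 52.5-fold lower in control MDSCs (33.8 to 86.2). Between the tumour libraries none of the 5 was called, where 2.98% of all genes were. The ratio of Siglecf for alisertib over control was 1.47 (1.34 to 1.62).

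Of 9 other basophil genes past the filter, 1 was called higher and 4 lower in each tumour library than in bone marrow. Fcer1a, the IgE-binding chain, had 3 counts in alisertib MDSCs, 3 in control MDSCs and 58 in bone marrow. It was 17.4-fold lower in alisertib MDSCs (5.66 to 86.8) and 16.4-fold lower in control MDSCs (5.33 to 81.7). Cyp11a1, a steroid-making enzyme found in basophils and mast cells, was 19.1-fold lower in alisertib MDSCs (10.5 to 38.9) and 10.4-fold lower in control MDSCs (6.53 to 17.6). Hdc, the histamine-making enzyme that immature myeloid cells also express, was the exception. It had 41297 counts in alisertib MDSCs, 60688 in control MDSCs and 19793 in bone marrow, 2.32-fold higher in alisertib MDSCs (2.28 to 2.36) and 3.62-fold higher in control MDSCs (3.56 to 3.68).

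Among 12 regulators of granulocyte lineages, 3 were called higher and 4 lower in each tumour library than in bone marrow. Of all genes, 41.0% were called in alisertib MDSCs and 41.3% in control MDSCs. Those called higher were Id2, Runx1 and Xbp1. Xbp1 was 3.81-fold higher in alisertib MDSCs (3.62 to 4.02) and 9.15-fold higher in control MDSCs (8.71 to 9.62). Id2 was 3.37-fold and 6.09-fold higher, and Runx1 5.39-fold and 5.14-fold, in the same order. Between the tumour libraries Xbp1 alone was called, 2.40-fold lower in alisertib MDSCs (2.33 to 2.47, not called with total counts). Among all genes 2.98% were called there. The regulators called lower included both GATA factors listed. Gata2, needed by basophils and mast cells, had 9 counts in alisertib MDSCs, 12 in control MDSCs and 497 in bone marrow, 49.7-fold lower in alisertib MDSCs (26.0 to 109) and 35.1-fold lower in control MDSCs (19.9 to 68.3). Gata1, needed by eosinophils, had 5 counts in alisertib MDSCs, 3 in control MDSCs and 45 in bone marrow, 8.10-fold lower in alisertib MDSCs (3.23 to 26.1) and 12.7-fold lower in control MDSCs (4.08 to 63.9). Cebpe, which drives late granule genes in eosinophils and neutrophils alike, was 40.6-fold lower in alisertib MDSCs (33.8 to 49.2) and 46.1-fold lower in control MDSCs (37.7 to 57.0). Gata1 and Gata2 also serve red cell and stem cell development.

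**Figure D4:**
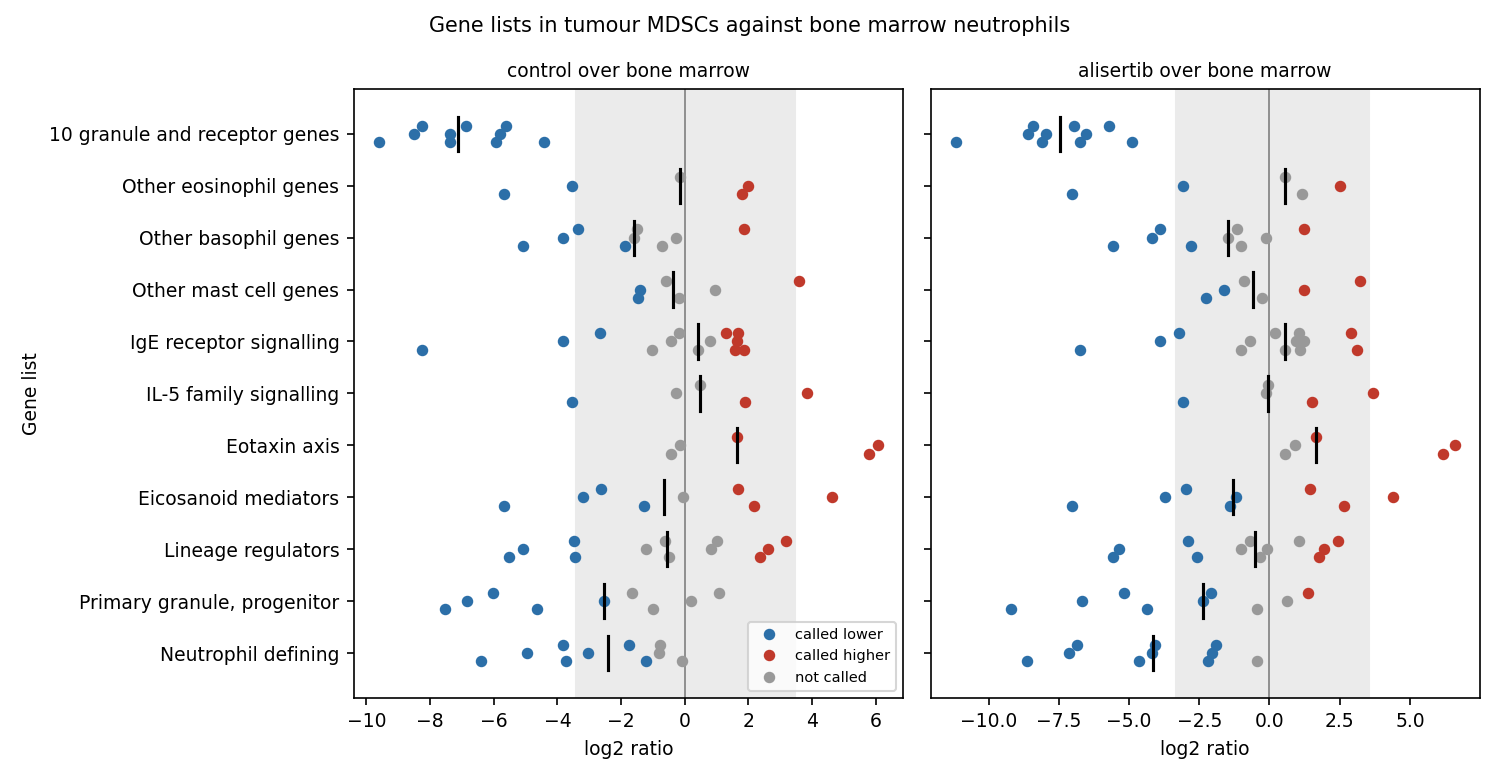
Log2 ratio of each gene past the filter in 11 gene lists, for control MDSCs over bone marrow and alisertib MDSCs over bone marrow; black bars are list medians, blue, red and grey mark genes called lower, called higher and not called, and grey bands the 5th to 95th percentile of all genes. The 10 granule and receptor genes all lie left of the bands, while the other eosinophil, basophil and mast cell lists have genes on both sides of 0.

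The bone marrow library differed from the tumour libraries in markers of other cells too. Of 9 genes of progenitors and primary granules, 6 were called lower and 1 higher in alisertib MDSCs than in bone marrow, and 5 lower in control MDSCs. Their summed level was 541 CPM in alisertib MDSCs, 420 CPM in control MDSCs and 408 CPM in bone marrow, most of it from genes other than the granule proteases, and Ctsg was at 0 counts in alisertib MDSCs. Among the granule proteases and peroxidase of the list, Elane was 110-fold lower in alisertib MDSCs (50.5 to 302) and 125-fold lower in control MDSCs (53.2 to 385). Mpo was 37.2-fold lower in alisertib MDSCs (25.7 to 55.7) and 67.6-fold lower in control MDSCs (40.8 to 121). Prtn3 was 5.15-fold lower in alisertib MDSCs (4.15 to 6.45) and 5.86-fold lower in control MDSCs (4.64 to 7.5). All 7 B cell genes in control MDSCs and 6 of 7 in alisertib MDSCs were called lower than in bone marrow, with 43.4 CPM summed in alisertib MDSCs, 5.63 CPM in control MDSCs and 207 CPM in bone marrow, none at 0. Of 7 red cell and platelet genes past the filter, 5 were called lower and Pf4 higher in each tumour library, and the 9 listed summed to 15.8 CPM in alisertib MDSCs, 15.6 CPM in control MDSCs and 85.4 CPM in bone marrow, with 1 gene at 0 in alisertib MDSCs. Between the tumour libraries, 6 of 7 B cell genes and 5 of 8 T and NK cell genes were called higher in alisertib MDSCs, and 7 of 10 neutrophil-defining genes were called lower. Among all genes 1.80% were called higher and 1.18% lower there. The T and NK cell genes Cd3d (ratio 0.714, 0.564 to 0.903) and Nkg7 (0.672, 0.267 to 1.63) lay under 1 and were not called. The part of these cells in the eosinophil, basophil and mast cell gene values was not tested.

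For the neutrophil label, 10 neutrophil-defining genes were read, none of which was at 0 in any library, which does not measure purity. Their summed level was 13512 CPM in alisertib MDSCs, 33219 CPM in control MDSCs and 102405 CPM in bone marrow. Of the 10, 9 were called lower in alisertib MDSCs and 7 in control MDSCs than in bone marrow. Among all genes 22.3% and 22.9% were. Camp was 395-fold lower in alisertib MDSCs (349 to 450) and 84.8-fold lower in control MDSCs (79.8 to 90.1), while Csf3r was not called in either. The stated sort purity was above 90%. Library totals were 19373087 counts in alisertib MDSCs, 21959748 in control MDSCs and 21987097 in bone marrow.

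Mast cell genes outside the 10 were also examined. Of 6 other mast cell genes past the count filter, 2 were called higher and 2 lower in alisertib MDSCs than in bone marrow, and 1 higher and 2 lower in control MDSCs. Kit, the stem cell factor receptor that mast cells keep, had 37 counts in alisertib MDSCs, 60 in control MDSCs and 198 in bone marrow, 4.82-fold lower in alisertib MDSCs (3.38 to 7.04) and 2.79-fold lower in control MDSCs (2.08 to 3.80, not called with DESeq2 size factors). Srgn, the proteoglycan core on which granule proteases are stored in many blood cells, was 9.23-fold higher in alisertib MDSCs (9.08 to 9.38) and 12.1-fold higher in control MDSCs (11.9 to 12.3). The tryptase and chymase genes, which define mature mast cells, were in the FPKM table but not among the genes of the count table. Tpsab1, a tryptase, had 1.74 FPKM in alisertib MDSCs, 1.36 FPKM in control MDSCs and was listed at 0 in bone marrow. Mcpt1, a mucosal mast cell chymase, had 1.77 FPKM in alisertib MDSCs, 0.679 FPKM in control MDSCs and was listed at 0 in bone marrow. The 6 proteases summed to 7.21 FPKM in alisertib MDSCs, 3.72 FPKM in control MDSCs and 0.172 FPKM in bone marrow, where 4 of them were listed at 0. Worked out from FPKM and gene length, this was about 219 reads in alisertib MDSCs, 111 in control MDSCs and 4.29 in bone marrow. For 8185 well-counted genes this working came within 0.5% of the count in 73.1%, so these reads are approximate. The protease sum was thus lowest in bone marrow, where Cpa3 was highest. Cpa3 had 0.185 FPKM in alisertib MDSCs, 0.263 FPKM in control MDSCs and 6.08 FPKM in bone marrow. Tpsab1 and Tpsb2 are close copies, as are the Mcpt genes, so reads may be split among them.

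**Figure D5:**
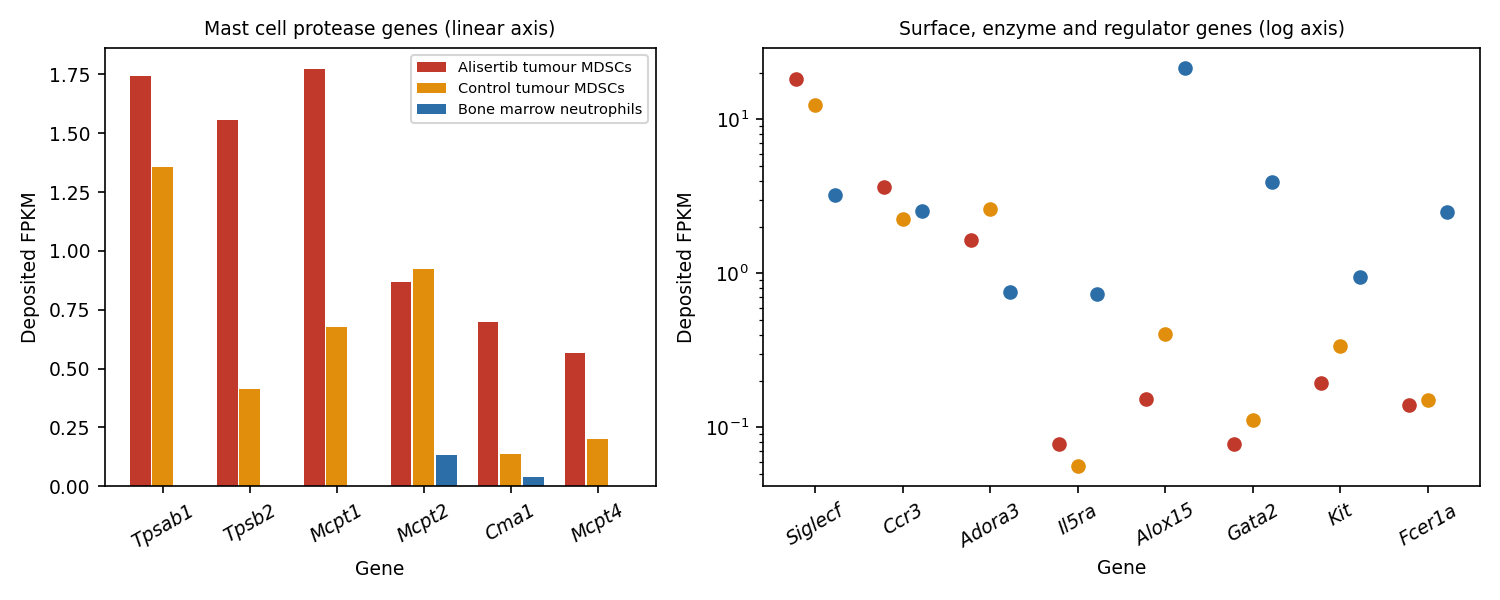
Deposited FPKM in alisertib MDSCs, control MDSCs and bone marrow neutrophils of 6 mast cell proteases (left, linear axis) and of 8 eosinophil, basophil and mast cell surface, enzyme and regulator genes (right, log axis), 1 library each without error bars. Tpsab1, Tpsb2, Mcpt1 and Mcpt4 are listed at 0 in bone marrow, and Siglecf is highest in alisertib MDSCs at 18.2 FPKM while Alox15 is highest in bone marrow at 21.6 FPKM.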

How the data were processed

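RNA from 3 pooled cell sorts was sequenced, with 1 library per group. Per the labels' protocols, cells were sorted on a FACSAria to a purity above 90%, their RNA was isolated in Trizol and sequencing libraries were prepared by the NEBNext Ultra protocol. The authors deposited raw read counts per gene and FPKM values per gene. Per the submitters' processing notes, CASAVA 1.8, STAR 2.5.1b and both mm9 and mm10 were involved, in roles the notes leave unstated. For the counting tool, the annotation and strand, the sources used here give nothing, so close copies such as the Ear genes are uncertain.

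Library sizes were scaled by TMM (edgeR 4.0.16, R 4.3.3), with factors of 1.07148, 0.88952 and 1.0492 for alisertib MDSCs, control MDSCs and bone marrow neutrophils. Genes with at least 1 CPM in at least 1 library were kept, 13019 in all. Log2 ratios used 0.5 added to each count. The 95% ratio interval was the exact Clopper-Pearson interval given the summed count (scipy 1.17.1), and a call needed the nearer bound to be 2-fold or more from 1. Against 0 counts a fold was taken from a floor of 3 counts per library (0.145, 0.154 and 0.130 CPM). Intervals and floors cover counting error only, since reads that carry no molecular identifiers need not stand for separate molecules. The script was tested on simulated data. Symbols and positions came from GENCODE M21 (GRCm38), and promoter sequences from RefSeq (GRCm38.p6).

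The genes and lists were chosen with earlier results of these data known. All 10 members are named, and of each other list the called or most abundant genes of known role. Alternatives were total counts, DESeq2 1.42.0 size factors, no filter, a 10 CPM filter, a 1.5-fold bound, the deposited FPKM with a pseudocount of 1 or 0.1, and the Ear genes as 1 member. The FPKM table held 23327 genes, of which 4154 were not in the count table and entered no ratio. Ear3, Ear5, Ear10, Ear14, Mcpt9, Mrgprb1, Mrgprb2 and Il3 were not analysed here.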

Additional observations from a re-analysis of the deposited data

Results flagged for a closer look

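Of 8 mast cell genes of the FPKM table that are not among the genes of the count table, and so entered no ratio, 7 had more signal in both tumour libraries than in bone marrow. The other, Rab27b, had 0.0175 FPKM in alisertib MDSCs, 0.0280 FPKM in control MDSCs and 0.0321 FPKM in bone marrow. Each value is from 1 library without a replicate. The matching share over all 4154 genes outside the count table was not computed, so 7 of 8 is a description. The tryptases came first, Tpsab1 with 1.74 FPKM in alisertib MDSCs and 1.36 FPKM in control MDSCs, and Tpsb2 with 1.56 FPKM in alisertib MDSCs and 0.415 FPKM in control MDSCs, both listed at 0 in bone marrow. Mcpt1 had 1.77 FPKM in alisertib MDSCs and 0.679 FPKM in control MDSCs, and Mcpt4, a connective tissue mast cell chymase, had 0.567 FPKM in alisertib MDSCs and 0.201 FPKM in control MDSCs, both listed at 0 in bone marrow. Mcpt2, a mucosal chymase, had 0.867 FPKM in alisertib MDSCs, 0.924 FPKM in control MDSCs and 0.132 FPKM in bone marrow. Cma1, the alpha chymase, had 0.697 FPKM in alisertib MDSCs, 0.139 FPKM in control MDSCs and 0.0399 FPKM in bone marrow. Tph1, which makes serotonin in mast cells, had 0.0635 FPKM in alisertib MDSCs, 0.0677 FPKM in control MDSCs and was listed at 0 in bone marrow. In deposited FPKM, 5 of the 6 proteases were higher in alisertib than in control MDSCs, Mcpt2 being the exception. No threshold or interval was applied, and the share of all genes higher in this way was not computed. This count too is a description. Reads worked out from FPKM and gene length were few and approximate. Cma1 came to 16.2 in alisertib MDSCs and 3.04 in control MDSCs, Mcpt4 to 13.4 and 4.48, and Tpsab1 to 78 and 57. Mcpt2 came to 19.7 and Tph1 to 8.38 in each tumour library. In bone marrow Cma1 came to 1.01 and Mcpt2 to 3.28, at or near the floor of 3 counts. Kit, Fcer1a and Cpa3, which mast cells also express, had 0.194, 0.141 and 0.185 FPKM in alisertib MDSCs and 0.336, 0.150 and 0.263 FPKM in control MDSCs, and their relation to the proteases was not tested.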

How the results depend on the processing

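With 1 library per group no replicate could be left out, and precision is limited by the 35 and 61 counts of the 10 genes in alisertib and control MDSCs. No paired analysis was possible because each group had 1 library. Against bone marrow every member with a value stayed lower and called under each alternative listed, over 67 values for each tumour library, with log2 ratios of -11.17 to -1.87 in alisertib MDSCs and -9.84 to -1.90 in control MDSCs. No filter, the 10 CPM filter and the 1.5-fold bound reuse the main ratios, so no member kept there could turn or lose its call. The values nearest 0 came with a pseudocount of 1, and without that alternative the ratios nearest 0 were -4.44 and -4.09. The 10 CPM filter left 7 members, since Prg3, Cpa3 and Ms4a2 lie under it, and with the Ear genes as 1 member 8 of 8 were lower. For alisertib over control the 388 genes called became 191 with the 10 CPM filter, 1257 with the 1.5-fold bound and 2362 with FPKM plus 0.1, and the 0 members called became 1 with the 1.5-fold bound (Mcpt8, lower) and 2 with FPKM plus 0.1 (Mcpt8 and Prss34, lower). For control over bone marrow the 5371 genes called became 3520 with the 10 CPM filter and 8521 with FPKM plus 0.1, and for alisertib over bone marrow the 5344 became 3507 and 8534. Scaling by total counts moved the median log2 ratio of all genes to 0.27 for alisertib over control, against 0.00 with TMM, and to -0.39 for control over bone marrow, against -0.14. It raised the share of higher genes among those called for alisertib over control to 84.0%, against 60.3%. Library sizes worked out from the deposited FPKM were 2.14e+07 in alisertib MDSCs, 2.01e+07 in control MDSCs and 2.33e+07 in bone marrow. The TMM-scaled sizes were 2.08e+07, 1.95e+07 and 2.31e+07 in that order, so the FPKM alternatives vary the scaling little. No direction of a called member or list gene turned under an alternative, though the filters and the 1.5-fold bound could not turn any.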

Other observations

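Genes of signalling around these cells were called in both directions, as were genes at large. Of 13 genes of IgE receptor signalling, 2 were called higher and 3 lower in alisertib MDSCs than in bone marrow, and 5 higher and 3 lower in control MDSCs, Ms4a2 being 1 of the 3. Of all genes, 18.7% were called higher and 22.3% lower in alisertib MDSCs, and 18.3% higher and 22.9% lower in control MDSCs. Fcer1g, the gamma chain that many Fc receptors share, had 9144 counts in alisertib MDSCs, 9867 in control MDSCs and 8778 in bone marrow and was not called, while the alpha and beta chain genes Fcer1a and Ms4a2 were called lower in both. Lat, a linker that T cells and platelets use too, was 2.73-fold higher in alisertib than in control MDSCs (2.14 to 3.51). Of 5 genes of the IL-5 family of receptors, 2 were called higher and 1 lower in each tumour library. Csf2rb, the signalling chain for IL-3, IL-5 and GM-CSF, was 2.87-fold higher in alisertib MDSCs (2.80 to 2.94) and 3.74-fold higher in control MDSCs (3.65 to 3.83) than in bone marrow. Csf2rb2, a close copy whose reads may be split with Csf2rb, was the other.

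Of 5 genes of the eotaxin axis, 3 were called higher in each tumour library and none lower. Ccl24, an eotaxin that macrophages secrete, had 295 counts in alisertib MDSCs, 208 in control MDSCs and 4 in bone marrow, 82.0-fold higher in alisertib MDSCs (31.7 to 303) and 61.4-fold higher in control MDSCs (23.6 to 228). Ccl7, a chemokine that binds the same receptor, had 43 counts in alisertib MDSCs, 28 in control MDSCs and 0 in bone marrow, at least 15.9-fold higher in alisertib MDSCs and at least 11.0-fold higher in control MDSCs. Ccl11 had 0.0432 FPKM in alisertib MDSCs, 0.0922 FPKM in control MDSCs and was listed at 0 in bone marrow.

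Of 8 genes of lipid mediator synthesis past the filter, 3 were called higher and 5 lower in alisertib MDSCs than in bone marrow, and 3 higher and 4 lower in control MDSCs. The share of all genes called was 41.0% in alisertib MDSCs and 41.3% in control MDSCs. Hpgds, which makes prostaglandin D2, a major mast cell product also made by macrophages, was 21.4-fold higher in alisertib MDSCs (13.2 to 37.3) and 25.1-fold higher in control MDSCs (15.4 to 43.5). Alox5, the first enzyme of leukotriene synthesis, was 7.88-fold lower in alisertib MDSCs (7.48 to 8.30) and 6.21-fold lower in control MDSCs (5.92 to 6.51). Its partner gene Alox5ap was 2.56-fold lower in alisertib than in control MDSCs (2.44 to 2.68), with 2506 counts in alisertib MDSCs and 6040 in control MDSCs. Of 9 macrophage and monocyte genes past the filter, 5 were called higher and 2 lower in alisertib MDSCs than in bone marrow, and 4 higher and 2 lower in control MDSCs, with 581 CPM summed over the 10 listed in alisertib MDSCs, 616 CPM in control MDSCs and 497 CPM in bone marrow. Their part in these values was not tested.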
